A study of Mus musculus with 8 samples.

Results

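The expression landscape of wild-type Th1 cells was read from 4 RNA sequencing libraries, all the wild-type libraries in a series of 8. The libraries were chosen by their genotype label alone. The cells were mouse CD4+ T cells of the strain C57BL/6J, naive at the start. They were stimulated through CD3 and CD28 by plate-bound antibodies in medium that favours the Th1 fate, and total RNA was taken after 72 h. The other 4 libraries of the series carry a knockout of Ikzf4, which encodes the transcription factor Eos, and enter no value below. The labels number the wild-type libraries 1 to 4 and leave unsaid what a number marks, such as an animal, a culture or a day. The spread between libraries may therefore be partly technical. With 1 group there was no comparison to test, so levels, ranks and spreads are descriptions.

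T helper 1 cells are the CD4 T cells that arm macrophages and cytotoxic cells against intracellular microbes, mainly through the cytokine interferon-gamma. Their fate is set when T cell receptor signals meet interferon-gamma and interleukin-12, whose signals induce T-bet, the factor encoded by Tbx21. T-bet opens Ifng and the gene of the chemokine receptor CXCR3, and holds back the factors of the other helper fates, among them GATA3 of Th2, Foxp3 of regulatory and Bcl6 of follicular T cells. Activation through CD3 and CD28 also drives growth, division and a turn to glycolysis.

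The 250 bases before the annotated start of 4 genes that anchor the programme are printed to show how unlike their promoters are, a contrast taken up beside the spread of the genes. Ifng encodes interferon-gamma and Il2 the T cell growth factor interleukin-2, and capitals mark TATAAA, the core letters of a TATA box. Gzmb encodes granzyme B and Tbx21 encodes T-bet, and capitals mark every CG. The sequences are from RefSeq on GRCm38.p6, read 5′ to 3′ on the strand of the gene.
Ifng (chr10:118440796-118441045, plus strand): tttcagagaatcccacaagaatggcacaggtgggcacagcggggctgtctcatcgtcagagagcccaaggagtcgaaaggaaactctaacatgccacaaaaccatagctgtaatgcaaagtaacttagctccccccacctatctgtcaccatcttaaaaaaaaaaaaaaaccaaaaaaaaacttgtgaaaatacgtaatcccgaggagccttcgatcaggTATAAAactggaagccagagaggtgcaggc
Il2 (chr3:37125955-37126204, minus strand): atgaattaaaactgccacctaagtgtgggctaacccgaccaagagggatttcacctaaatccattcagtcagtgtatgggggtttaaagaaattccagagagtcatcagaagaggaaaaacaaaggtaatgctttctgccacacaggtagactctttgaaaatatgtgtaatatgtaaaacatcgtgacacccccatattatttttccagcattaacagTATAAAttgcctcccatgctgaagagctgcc
Gzmb (chr14:56262335-56262584, minus strand): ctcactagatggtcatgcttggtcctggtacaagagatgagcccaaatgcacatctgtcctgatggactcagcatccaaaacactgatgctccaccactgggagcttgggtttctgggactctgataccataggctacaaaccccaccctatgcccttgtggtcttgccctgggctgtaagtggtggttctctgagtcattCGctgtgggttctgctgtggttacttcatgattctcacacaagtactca
Tbx21 (chr11:97115332-97115581, minus strand): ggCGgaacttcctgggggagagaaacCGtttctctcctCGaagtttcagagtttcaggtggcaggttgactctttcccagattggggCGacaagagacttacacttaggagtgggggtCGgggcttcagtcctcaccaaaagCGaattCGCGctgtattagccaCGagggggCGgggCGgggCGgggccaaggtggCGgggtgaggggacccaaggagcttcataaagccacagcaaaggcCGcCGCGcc
TATAAA lay 30 bases before the start in Ifng and 31 bases before it in Il2. The window of Gzmb held 1 CG and that of Tbx21 held 16.

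The libraries held 43958781, 35423558, 31101529 and 25893792 counts in the order of their numbers. Levels are given as CPM, the counts of a gene relative to the total of its library after scaling by TMM factors. Where genes are compared with each other, the level is per length: counts over summed exon length, rescaled to the same sum in each library (TPM). A gene counted as detected at 1 CPM or more in each of the 4 libraries, which 11284 of 49040 genes reached (23.0%). Of these, 11183 had a length, and ranks run over them from 1 for the highest level per length. Errors are SDs over 4 libraries, and the coefficient of variation (CV) is the SD in percent of the mean CPM. The median CV of detected genes was 16.1%, while counting error alone would give a median of 2.88%.

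The 4 libraries were not equally alike. Over the 8744 detected genes with a mean of 10 CPM or more, libraries 3 and 4 differed by 2-fold or more in 42 genes (0.480%). Libraries 2 and 4 were farthest apart, with 698 such genes (7.98%), and libraries 2 and 3 had 677 (7.74%). Library 1 differed in this way from library 2 in 268 genes (3.06%), from library 3 in 312 (3.57%) and from library 4 in 360 (4.12%). Libraries 3 and 4 were thus the closest pair, and library 1 was nearer to library 2 than to library 3 or 4. Library 2 also held 17852 counts of Xist, the RNA of the inactive X chromosome, against 1 to 14 counts in the other libraries. It held 0 or 1 count of each of the Y-linked genes Ddx3y, Eif2s3y, Kdm5d and Uty, which had 551 to 3921 counts elsewhere, the pattern of female cells in library 2 and of male cells in the other 3. Whether sex, animal or day goes with the spread described below was not tested.

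The members described here are 351 genes of 16 lists, from lineage factors to metabolism, of which 350 were in the table and 314 were detected (23.0% of all genes were). Among the detected list genes, 118 lay in the top 10% by level per length, at 149 TPM or more, where 9.91% of detected genes lie. The 16 lists took 7.32% to 9.84% of all counts of a library. They also differed more between libraries than detected genes in general: their median CV was 22.3%, and 52 of 314 (16.6%) had a CV of 50% or more, against 5.10% of detected genes. Without library 2 the counts at 50% or more were 41 list genes and 340 detected genes. A single library stood apart from the other 3 in 16 of the 173 genes named by rule, against 6.41% of detected genes. The rule also picked genes for a large CV over these same libraries, so this share is partly built in. Since the lists hold genes picked with earlier results of these data known, these shares describe the lists and test nothing.

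Of the 5 genes taken as markers of Th1 cells, 4 lay in the top 10% by level per length, and Cxcr3 lay below the median. Gzmb, the serine protease of cytotoxic granules, stood at 2096, 1009, 4201 and 2634 CPM in libraries 1 to 4, a mean of 2485 ± 1329 (SD, n = 4). Per length it averaged 5324 TPM, rank 11, among the ribosomal and cytoskeletal genes that fill the top of the list. Ifng stood at 1291, 875, 1771 and 1338 CPM, a mean of 1319 ± 366 (SD, n = 4). Its 3120 TPM put it at rank 31, and for both genes library 2 was lowest and library 3 highest.

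Tbx21 had 291, 190, 226 and 170 CPM, a mean of 219 ± 53.1 (SD, n = 4), and ranked 563 with 269 TPM. Cd4, the coreceptor that defines the helper lineage, had 490, 597, 433 and 503 CPM, a mean of 506 ± 68.2 (SD, n = 4), and ranked 362 with 381 TPM. Both lay in the top 10% in level per length. Cxcr3 had 5.92, 2.83, 20.7 and 15.2 CPM, a mean of 11.2 ± 8.24 (SD, n = 4). With 19.9 TPM it ranked 6155, under the median level of detected genes of 23.6 TPM. By its mean Cxcr3 was thus the exception among the 5 markers. It was uneven, lowest in library 2 and highest in library 3.

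By GENCODE M21 on GRCm38, Tbx21 is encoded on chromosome 11 from 97098071 to 97115331 and Ifng on chromosome 10 from 118441046 to 118445892. Cd4 lies on chromosome 6 from 124864692 to 124888221, and Cxcr3 on the X chromosome from 101731535 to 101734269. Gzmb lies on chromosome 14 from 56258838 to 56262260, within the granzyme cluster, and its RefSeq start, like that of Il2, is not the base at which GENCODE begins the gene. Counts cover the exons of each gene as the authors counted them, so isoforms are not told apart.

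The T cell receptor complex and its signalling genes formed the base of the landscape. All 18 genes of the T cell identity list were detected, 17 of them in the top 10% per length, and their CVs ran from 2.29% to 30.6%. The constant gene of the beta chain, Trbc2, was highest with 1862 TPM, followed by Trac of the alpha chain with 992 TPM, Trbc1 with 935 TPM and the adhesion receptor Cd2 with 910 TPM. Trbc1 and Trbc2 are near-identical, so their split is uncertain. Zap70, the kinase that docks on the engaged receptor, had 304, 307, 307 and 320 CPM. Lck, the kinase that acts before it, had 613, 572, 595 and 572 CPM. Their CVs of 3.34% for Lck and 2.29% for Zap70 were far under those of most effector genes below. Lat, the adaptor that Zap70 phosphorylates, had 469, 606, 354 and 346 CPM. Thy1, a surface glycoprotein of mouse T cells, had 441, 370, 670 and 615 CPM, lowest in library 2, where Lat was highest.

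Among the Th1 factors, all 12 were detected and 4 lay in the top 10% per length. The highest was Bhlhe40, a repressor that limits Il10 and sustains Ifng, with 490, 367, 399 and 545 TPM. Tbx21 followed with 357, 224, 283 and 212 TPM, then Irf8, an interferon regulatory factor, with 260, 235, 213 and 347 TPM. Tbx21 and Irf8 changed places between libraries, while Bhlhe40 stood above Tbx21 in all 4. Irf1, induced by interferons, averaged 181 TPM, Id2, an antagonist of E proteins, 134 TPM, and Runx3, a partner of T-bet at Ifng, 127 TPM. Stat4, which carries the signal of interleukin-12, averaged 44.3 TPM.

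The other Th1 factors were lower or more uneven. Hlx, a homeobox factor that acts with T-bet, had 36.5, 15.2, 130 and 100 TPM, low in library 2 and high in library 3. Eomes, the T-box relative of T-bet, averaged 3.70 TPM, so that Tbx21 stood 31.5 to 152 times above it per length. Zeb2, a transcriptional repressor that acts in terminal effector cells, also averaged 3.70 TPM. Twist1, which dampens Th1 responses, had 8.37, 2.77, 2.64 and 2.27 CPM, and its mean of 4.01 fell to 2.56 CPM without library 1. Of the 11 neighbouring pairs in the order of mean TPM, 4 kept their order in all 4 libraries: Bhlhe40 over Tbx21, Irf8 over Irf1, Irf1 over Id2 and Stat4 over Twist1.

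Gata3, Foxp3 and Bcl6, master factors of other helper fates, were far below Tbx21 in level per length in every library. Tbx21 exceeded Gata3 by 12.0 to 75.7 times and Foxp3 by 33.4 to 304 times. It exceeded Bcl6 by 68.6 to 93.2 times, the narrowest of these ranges. Each of these genes was nonetheless detected in all 4 libraries, and in bulk RNA a few cells with much of a transcript cannot be told apart from many cells with little.

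**Figure D1:**
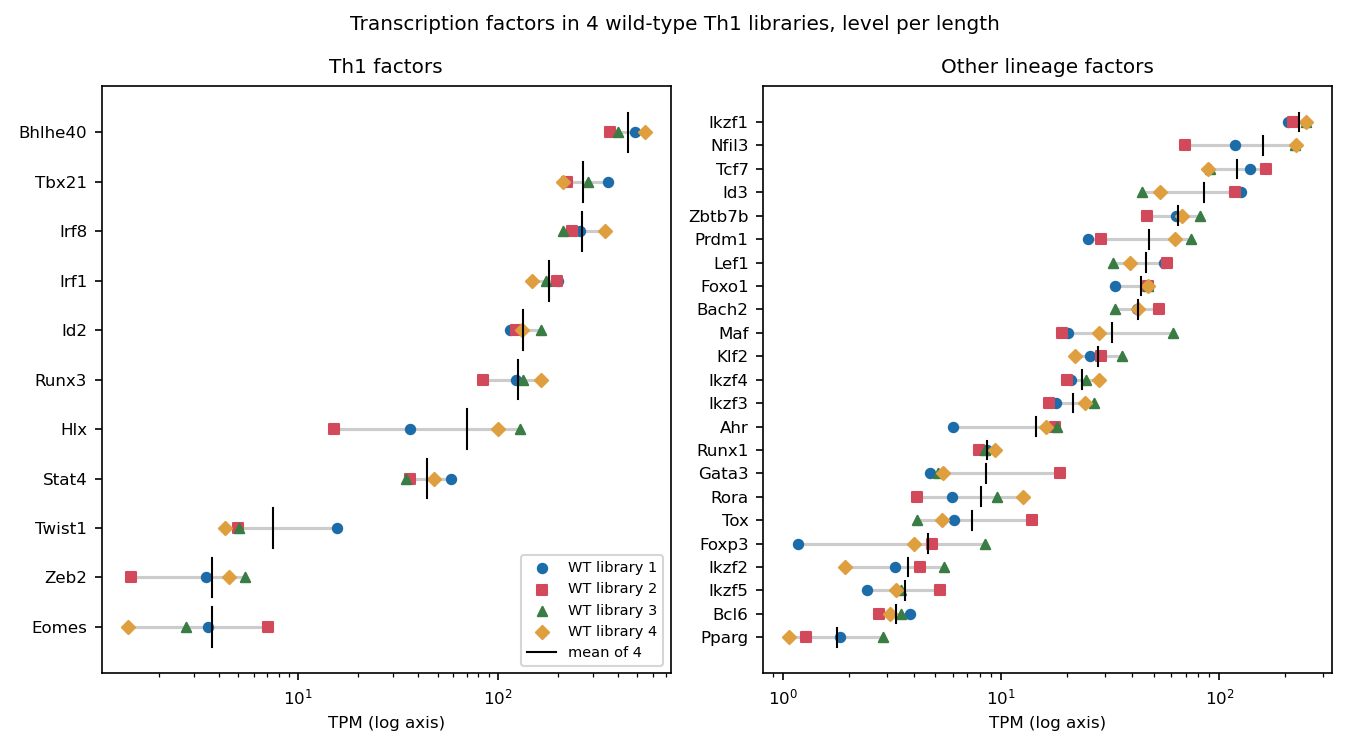
Level per length (TPM, log axis) of detected Th1 factors (left) and other lineage factors (right), 1 of each list left out, in each of the 4 wild-type libraries, with the mean as a black bar. Tbx21 lies between 212 and 357 TPM, while Gata3, Foxp3 and Bcl6 lie under 20 TPM in every library.

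The helper factors also moved unlike each other between libraries. Gata3 had 6.15, 25.4, 6.57 and 6.96 CPM, high in library 2 alone, and its mean of 11.3 CPM became 6.56 CPM without that library. Maf, a factor of Th17, follicular and interleukin-10-making cells, had 54.3, 53.4, 162 and 74.4 CPM, highest in library 3. Foxp3 had 1.76, 7.50, 12.5 and 5.87 CPM. Bcl6 stayed low and even, with 8.41, 6.30, 7.51 and 6.69 CPM. Rora, a nuclear receptor, averaged 8.07 TPM, Ahr, the aryl hydrocarbon receptor, 14.4 TPM, and Pparg, a fatty acid receptor, 1.76 TPM. Spi1, which encodes PU.1, was the only one of the 25 genes in this list not detected, at 0 to 0.271 CPM.

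Factors of naive and memory cells remained measurable beside those of effector cells. Tcf7, which encodes TCF-1, had 119, 146, 76.6 and 74.9 CPM, and Lef1, its relative, 161, 173, 92.5 and 111 CPM. Prdm1, which encodes the effector factor Blimp-1, had 45.6, 54.6, 133 and 113 CPM. Tcf7 was highest in library 2, where Prdm1 had 54.6 CPM, and Prdm1 was highest in library 3. Id3, an E protein antagonist of less differentiated cells, had 73.8, 71.8, 25.5 and 30.9 CPM, and Nfil3, a leucine zipper factor, 78.4, 47.9, 144 and 146 CPM. Bach2, a repressor of effector genes, averaged 42.5 TPM, Foxo1, a factor of quiescence, 43.7 TPM, Klf2, which sustains recirculation, 27.9 TPM, and Tox, a factor of persistent stimulation, 7.34 TPM.

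The remaining factors of this list differed in their spread. Zbtb7b, which encodes the helper lineage factor ThPOK, averaged 64.7 TPM with a CV of 19.9%. Runx1, which acts with many lineage factors, averaged 8.60 TPM with a CV of 5.34%. Of the Ikaros family of zinc-finger factors, Ikzf1 stood highest with 231 TPM, and Ikzf4, the gene removed in the other libraries of the series, averaged 23.4 TPM. Ikzf3 averaged 21.3 TPM, Ikzf2 3.73 TPM and Ikzf5 3.61 TPM. The CVs were 7.95% for Ikzf1, 13.6% for Ikzf4 and 20.9% for Ikzf3. Those of Ikzf2 and Ikzf5 were wider, 40.5% and 35.0%, where the list median was 37.4%.

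Factors of activation were abundant after 72 h. All 19 genes of this list were detected, and 7 lay in the top 10% per length. Junb and Jund, subunits of AP-1, averaged 1317 and 691 TPM, Myc, the driver of growth, 515 TPM, and Irf4, whose level tracks receptor signal strength, 444 TPM. Junb had 1333, 888, 881 and 871 CPM, high in library 1 alone. The immediate early genes varied most: Egr2 had 118, 104, 45.8 and 38.0 CPM, Egr1 148, 116, 59.9 and 58.3 CPM, and Fos 21.3, 11.3, 15.3 and 5.01 CPM. All 3 were highest in library 1 and lowest in library 4. Library 1 was highest for 11 of the 19 genes, and for 2662 of all 11284 detected genes.

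Among the secreted and membrane-bound cytokines, Ifng was joined at the top by Mif, the migration inhibitory factor that most cells make. Mif had 3495, 2029, 3401 and 3530 TPM, and Ifng 3047, 1980, 4250 and 3203 TPM, so their order changed between libraries. Of the 32 genes listed, 22 were detected and 8 lay in the top 10% per length. Ltb and Lta, which together form lymphotoxin, averaged 577 and 465 TPM, and Cd40lg, the ligand through which helper cells license other cells, 280 TPM. Tgfb1, a suppressive cytokine, was the steadiest member, with 269, 300, 295 and 284 CPM and a CV of 4.80%.

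Il10, the anti-inflammatory cytokine, had 60.2, 54.2, 187 and 106 CPM, highest in library 3. Per length Ifng exceeded it by 9.58 to 21.7 times. Il21, which acts on B cells and T cells, had 208, 68.0, 228 and 199 CPM, lowest in library 2. Lif, the leukaemia inhibitory factor, averaged 164 TPM, and Osm, its relative oncostatin M, 81.0 TPM. Il24, an interleukin-10 relative, had 6.87, 3.13, 33.6 and 27.6 CPM, highest in library 3 as Il10 was.

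Il2 and Tnf, the other cytokines classed with Th1 cells, were uneven. Il2 had 104, 66.2, 5.06 and 9.38 CPM, a mean of 46.1 ± 47.4 that dropped to 26.9 CPM without library 1. Tnf, the inflammatory tumour necrosis factor, had 129, 96.7, 39.4 and 31.3 CPM. Both were highest in library 1 and second in library 2, where Ifng and Gzmb were lowest. The ratio of Ifng to Il2 per length was 11.0, 11.7, 309 and 126 in libraries 1 to 4. Tnfsf11, which encodes RANKL, had 23.9, 60.7, 6.35 and 12.5 CPM, and its mean of 25.9 CPM was 14.3 CPM without library 2.

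The remaining members of the tumour necrosis factor family and the growth factors averaged less per length than Tnf, which had 137 TPM. Tnfsf8, the CD30 ligand, averaged 86.9 TPM, Tnfsf14, also named LIGHT, 33.5 TPM, Tnfsf10, also named TRAIL, 23.9 TPM and Fasl, the death ligand, 14.8 TPM. Il3 averaged 41.5 TPM, Csf1, a macrophage growth factor, 16.1 TPM, Csf2, which encodes GM-CSF, 11.6 TPM and Ebi3, a subunit of interleukin-27 and interleukin-35, 10.4 TPM. Csf2 had 4.36, 3.92, 2.55 and 1.37 CPM, at the lower edge of detection.

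The Th2 cytokines Il4, Il5 and Il13, and Il9, were under 4 CPM in every library. Il4 had 0.769, 2.49, 3.22 and 1.88 CPM and Il13 had 1.04, 2.02, 3.64 and 0.821 CPM. Per length Ifng exceeded Il4 by 333 to 1591 times. Il5 averaged 0.101 CPM (0.0599 without library 3), and Il9 averaged 0.114 CPM. The Th17 cytokines were highest in library 3. Il17f had 0.520, 1.90, 13.5 and 10.6 CPM, a mean of 6.64 that was 4.34 without library 3. Il17a had 0.0226, 0.0280, 1.32 and 0.196 CPM, and its mean of 0.392 became 0.0820 CPM without library 3. Il22 had 5.81, 0.588, 13.2 and 5.94 CPM, a mean of 6.39 that was 4.11 without library 3. Il23r, the receptor that sustains Th17 cells, had 5.25, 2.32, 18.6 and 12.0 CPM, also highest in library 3.

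**Figure D2:**
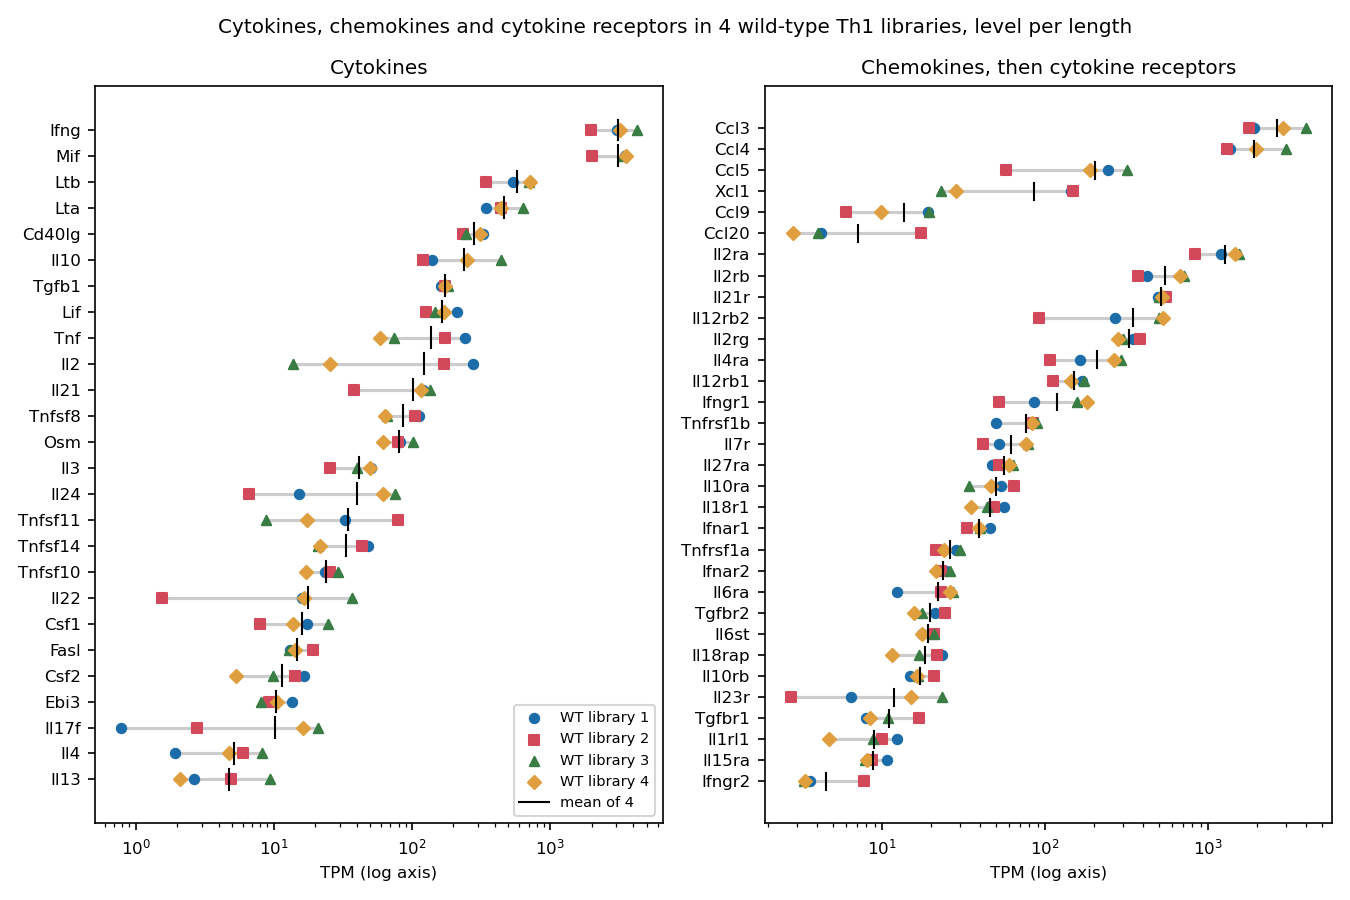
Level per length (TPM, log axis) of the detected cytokines with 4 cytokines of other helper fates that missed detection (left), and of detected chemokines and cytokine receptors (right), in each of the 4 wild-type libraries, with the mean as a black bar. Ifng stays at or above 1980 TPM, Il4 at or below 8.16 TPM, and Il2 runs from 13.7 to 277 TPM.

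The inflammatory chemokines Ccl3 and Ccl4 were among the highest transcripts of all. Ccl3 had 482, 467, 984 and 713 CPM and 2647 TPM on average, rank 41. Ccl4 had 295, 295, 636 and 421 CPM and 1913 TPM on average, rank 65. Ccl5, which attracts T cells and monocytes, had 76.2, 18.8, 97.4 and 58.2 CPM. All 3 were highest in library 3. Xcl1, which attracts cross-presenting dendritic cells, went otherwise, with 24.6, 26.3, 3.87 and 4.81 CPM. Of 11 chemokines, 6 were detected, and the ligands of CXCR3 were low, with Cxcl10 at 19.2, 3.47, 2.90 and 0.469 CPM and Cxcl9 and Cxcl11 under 1 CPM throughout. The median CV of the 6 was 50.8%, the highest of the 16 lists, and 34.1% without library 2, below the 36.6% that the cytotoxic list then had. The widest spread was that of Ccl20, a CCR6 ligand, with a CV of 99.7% and a mean of 3.36 CPM. Ccl9, a CCR1 ligand, had 18.9, 6.19, 19.0 and 9.70 CPM.

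Receptors for interleukin-2 led the cytokine receptors. Il2ra, the alpha chain that gives high affinity, had 2246, 1626, 2845 and 2679 CPM, 1260 TPM on average, rank 104. Il2rb, the signalling beta chain, averaged 545 TPM, and Il2rg, the chain shared with further cytokines, 327 TPM. Il2ra exceeded Il2rb per length by 2.16 to 2.86 times. The CVs of Il2ra and Il2rb were 23.2% and 29.9%, against 103% for Il2 itself. Il21r, the interleukin-21 receptor, averaged 514 TPM with a CV of 7.29%. Of 30 receptors 26 were detected, with 6 in the top 10% per length.

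The interleukin-12 receptor differed by subunit. Il12rb1, the chain shared with the interleukin-23 receptor, had 226, 156, 229 and 191 CPM. Il12rb2, the chain that binds STAT4, had 333, 119, 605 and 648 CPM. Per length the ratio of Il12rb2 to Il12rb1 was 1.59, 0.828, 2.86 and 3.67 in libraries 1 to 4, so Il12rb2 was the lower of the 2 in library 2 alone. Il18r1 and Il18rap, the chains of the interleukin-18 receptor, averaged 45.7 and 18.3 TPM.

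The interferon-gamma receptor was also uneven between its chains. Ifngr1, the ligand-binding chain, had 78.9, 50.7, 144 and 165 CPM, and Ifngr2, the signalling chain, 4.46, 9.88, 4.03 and 4.07 CPM. Ifngr1 exceeded Ifngr2 per length by 23.4, 6.79, 47.2 and 53.8 times in libraries 1 to 4. Library 2 was lowest for the first chain and highest for the second. The type I interferon receptor chains Ifnar1 and Ifnar2 averaged 39.3 and 23.7 TPM, with CVs of 11.9% and 7.91%. Il4ra averaged 207 TPM, whereas Il1rl1, the interleukin-33 receptor, averaged 8.93 TPM and Il17rb and Il9r stayed under 1 CPM.

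Among the genes of chemokine receptors and homing, Ccr7, which guides cells to lymph nodes, had 670, 778, 219 and 436 CPM and was the highest of its list at 803 TPM on average. Itgb2 and Itgal, the chains of the integrin LFA-1, averaged 344 and 285 TPM, and Selplg, the scaffold of selectin ligands, 235 TPM, in that order in all 4 libraries.

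Receptors of other fates were present at modest levels. Ccr4, classed with Th2 cells, had 22.7, 45.9, 51.0 and 63.4 CPM, and Ccr6, of Th17 cells, 5.20, 23.2, 4.83 and 19.3 CPM. Ccr8 had 7.19, 39.6, 8.41 and 10.6 CPM, and its mean of 16.4 CPM was 8.72 CPM without library 2. Gata3 was likewise high in library 2. Ccr2, a receptor of inflamed tissue, had 3.17, 1.23, 10.8 and 7.59 CPM. Cxcr5, the follicular receptor, averaged 8.61 TPM, and Ccr9, Ccr10 and Cx3cr1 were under 1 CPM in every library. In all, 20 of 26 genes of this list were detected. A CV of 50% or more was found in 6 of the 20 (4 without library 2), against 5.10% of detected genes.

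Receptors that modulate activation were widely expressed, with 23 of 24 detected and 9 in the top 10% per length. Members of the tumour necrosis factor receptor family stood highest: Tnfrsf4, which encodes OX40, averaged 1237 TPM, Tnfrsf18, which encodes GITR, 770 TPM and Tnfrsf9, which encodes 4-1BB, 686 TPM. The inhibitory receptor Ctla4 had 195, 204, 526 and 619 CPM, while Pdcd1, which encodes PD-1, had 118, 114, 73.6 and 75.3 CPM. Ctla4 was highest in library 4, Pdcd1 in library 1. Lag3 averaged 404 TPM and Icos, a relative of CD28, 262 TPM. Cd226 and Cd96, which share ligands with Tigit, were highest in library 2: Cd226 averaged 12.2 CPM (7.60 without that library) and Cd96 35.0 CPM (22.9 without it). Cd160 had 13.8, 21.0, 5.64 and 3.21 CPM. Klrg1, a mark of terminal effector cells, stayed under 1 CPM. A CV of 50% or more was found in 8 of the 23, and in 5 without library 2, against 5.10% of detected genes.

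Beyond Gzmb, the cytotoxic genes were expressed unevenly. Nkg7 and Srgn, a granule protein and the proteoglycan that packs granules, averaged 879 and 753 TPM with CVs of 18.4% and 9.10%. Lamp1, a lysosomal membrane protein, averaged 180 TPM. Prf1, the pore-forming perforin, had 66.1, 27.0, 221 and 133 CPM and per length 0.0149 to 0.0292 of the Gzmb level. Gzma, another granzyme, had 4.98, 2.10, 28.5 and 8.76 CPM, and its mean of 11.1 CPM was 5.28 CPM without library 3. Klrc1, an NKG2 receptor gene, had 11.0, 4.34, 41.7 and 19.0 CPM, with a mean of 19.0 that was 11.4 without library 3. Gzmb, Prf1, Gzma and Klrc1 thus shared the same highest and lowest library, 3 and 2. Gzmc, Gzmd and Gzme were highest in library 1 instead, and since granzyme genes of this cluster are similar in sequence their split is uncertain. In all, 19 of 23 were detected and 8 of the 19 had a CV of 50% or more (7 without library 2), against 5.10% of detected genes.

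**Figure D3:**
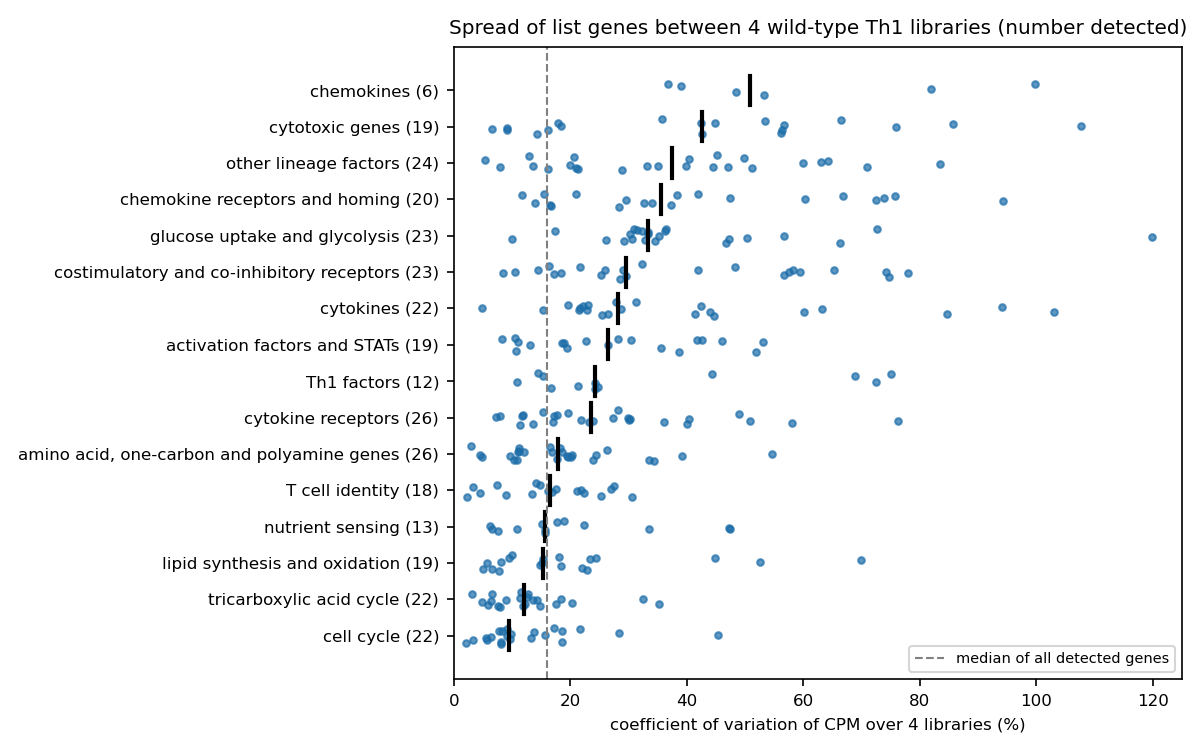
Coefficient of variation of CPM over the 4 wild-type libraries (%) for each detected gene of the 16 lists (points), with the list median as a black bar and the median of all detected genes, 16.1%, as a dashed line. Chemokines have the highest list median, 50.8% (34.1% without library 2), and cell cycle genes the lowest, 9.42% (8.48% without library 2, above the 7.29% of the tricarboxylic acid cycle).

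Enzymes of glycolysis were the most abundant metabolic genes. Gapdh, Ldha, Pkm and Pgk1 averaged 3664, 3459, 3299 and 2682 TPM, and 15 of the 23 detected genes lay in the top 10% per length. The list took 2.55%, 1.72%, 3.33% and 3.67% of the counts of libraries 1 to 4. Library 4 was highest for 18 of the 23 genes and library 2 was lowest for 18. Of all 11284 detected genes, library 4 was highest for 2393 and library 2 lowest for 3727. Gapdh had 4491, 2720, 6067 and 6459 CPM, and Pkm, which encodes pyruvate kinase, 5143, 3156, 6403 and 6817 CPM. Hif1a, the oxygen-sensitive factor that drives many of these genes, had 740, 537, 1078 and 1036 CPM.

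Transporters and isozymes of the pathway did not all share this order. Slc2a1, which encodes the glucose transporter GLUT1, had 296, 142, 255 and 503 CPM. Slc2a3, which encodes GLUT3, had 55.5, 29.6, 307 and 799 CPM, and its mean of 298 CPM was 131 CPM without library 4. Slc2a1 stood above Slc2a3 per length in every library, by 11.0, 9.93, 1.72 and 1.30 times. Slc16a3, the lactate exporter MCT4, had 234, 91.3, 480 and 719 CPM, whereas Slc16a1, the transporter MCT1, had 160, 168, 133 and 162 CPM. Eno3 and Ldhb, isozymes of enolase and lactate dehydrogenase, were highest in library 2, Eno3 with 41.2, 142, 42.0 and 63.0 CPM and Ldhb with 37.4, 70.3, 24.3 and 23.0 CPM. Ldha exceeded Ldhb per length by 19.4 to 90.3 times. Pklr, the pyruvate kinase of liver and red cells, was the only gene of the 24 not detected.

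Genes of the tricarboxylic acid cycle were lower and steadier. All 22 were detected, 7 in the top 10% per length, with a median CV of 12.1% (7.29% without library 2) and none at 50% or more. Mdh2 and Sdha, enzymes of the mitochondrion, averaged 376 and 212 TPM, and Acly, the citrate lyase of the cytosol, averaged 279 TPM. The list took 0.362% to 0.373% of counts, nearly the same share in each library. Pkm exceeded Cs, citrate synthase, by 13.3 to 23.8 times per length. The widest spreads were those of Mpc2, a subunit of the mitochondrial pyruvate carrier, with a CV of 35.3%, and Idh1, the cytosolic isocitrate dehydrogenase, with 32.4%.

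Biosynthesis was represented by amino acid and lipid genes. Odc1, the first enzyme of polyamine synthesis, averaged 813 TPM, Srm, spermidine synthase, 472 TPM, Phgdh, which opens serine synthesis, 313 TPM, and the amino acid transporter Slc7a5 267 TPM. Of the 28 genes of that list 26 were detected, with a median CV of 18.0%, while Arg1 and Arg2, the arginases, stayed under 1 CPM. Gls2, the second glutaminase, had 16.2, 5.49, 24.7 and 28.5 CPM, the widest spread of the list. Mthfd1l, a mitochondrial enzyme of one-carbon metabolism, had 165, 128, 241 and 282 CPM. Asns, which makes asparagine, had 67.3, 23.8, 50.5 and 42.7 CPM, and like the other 2 was lowest in library 2. Scd2 and Scd1, desaturases of fatty acids, had 708, 378, 1316 and 1448 CPM and 33.7, 7.56, 81.1 and 62.1 CPM. Both were lowest in library 2, where Cpt1a, which admits fatty acids for oxidation, was highest with 60.2 CPM, against 24.6 to 31.5 CPM in the other libraries. Acadl, an enzyme of fatty acid oxidation, averaged 254 TPM and Srebf2, a driver of sterol synthesis, 205 TPM. Hmgcs1, an early enzyme of that pathway, averaged 186 TPM.

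Nutrient sensing genes were moderate in level. Of 14 genes 13 were detected and only Ddit4, a stress-induced brake on mTORC1, lay in the top 10% per length, with 347 TPM. Mtor, Rptor and Rictor averaged 24.2, 13.4 and 9.56 TPM. Eif4ebp1, a translation repressor under mTORC1, had 75.0, 38.8, 107 and 138 CPM, and Sesn2, a leucine sensor, 122, 115, 54.9 and 45.2 CPM. Library 4 was highest for the first and lowest for the second. Eif4ebp2, a relative of Eif4ebp1, averaged 55.9 TPM.

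Cell cycle genes had the lowest median CV of the 16 lists, 9.42% over 22 detected genes, 13 of them in the top 10% per length. Without library 2 it was 8.48%, above the 7.29% of the tricarboxylic acid cycle list. Pcna, the replication clamp, averaged 695 TPM, Cdkn1a, the inhibitor p21, 389 TPM, Ccnd2, the main D-type cyclin here, 322 TPM and Cdk4, its kinase, 318 TPM. E2f1, which switches on replication genes, had 39.0, 38.5, 39.5 and 37.6 CPM, a CV of 2.11%. Mki67, the proliferation antigen, had 422, 432, 652 and 578 CPM, and Cdkn1a 625, 624, 200 and 378 CPM, the largest spread of the list. Ccnd1, the cyclin that T cells make little of, had 0.451 to 1.13 CPM. Cdk6, the partner of Cdk4 in binding D-type cyclins, had 232, 159, 327 and 258 CPM.

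**Figure D4:**
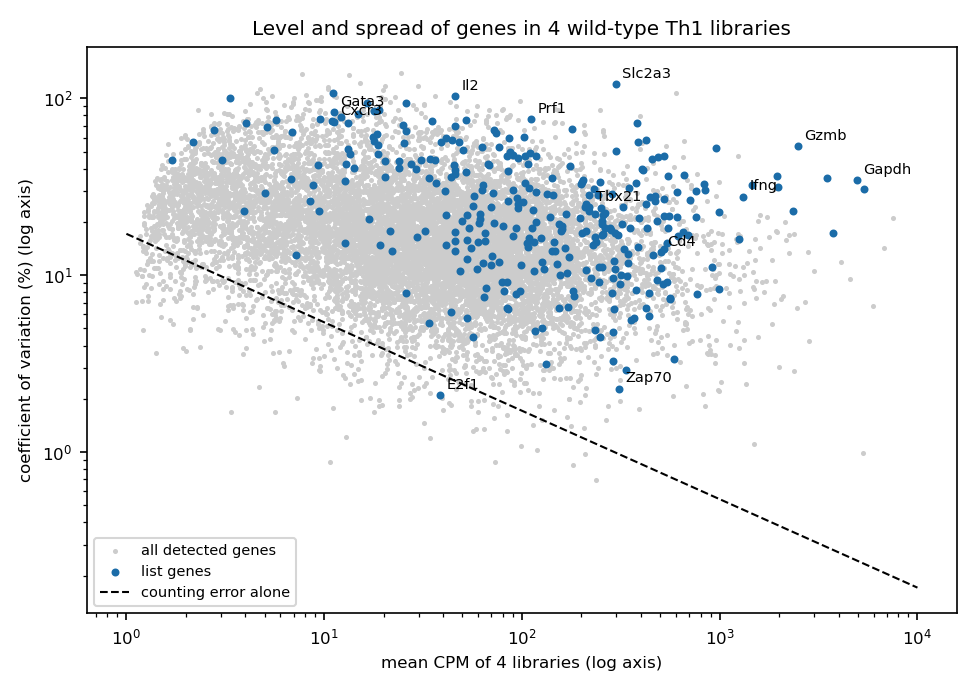
Mean CPM and coefficient of variation (%) over the 4 wild-type libraries for all detected genes (grey) and detected list genes (blue), both axes logarithmic, with the spread that counting error alone gives at the mean depth (dashed). Gzmb and Slc2a3 combine a high level with CVs of 53.5% and 120%, while E2f1 and Zap70 have 2.11% and 2.29%.

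Over all genes, the 10 highest levels per length among named protein-coding genes outside the mitochondrial genome were 5 genes of ribosomal proteins (Rplp1, Rplp0, Rpl36, Rpl41 and Rps3a1), the elongation factors Eef1a1 and Eef2, Actb, Ptma and Gzmb. Rplp1 averaged 13193 TPM, Eef1a1 9272 TPM and Rplp0 7569 TPM. Gzmb was the only one of the 10 that belongs to an effector programme. Actb, cytoplasmic actin, had 5377, 5330, 5253 and 5296 CPM, a CV of 0.991%. Many ribosomal protein genes have near-identical pseudogenes, so their counts are uncertain.

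The 20 largest CVs among genes at 10 CPM or more fell into a few patterns of libraries. Tgm2, transglutaminase, had 107, 30.5, 901 and 1353 CPM, and its mean of 598 CPM was 346 without library 4. Arrb1, beta-arrestin, had 26.5, 17.1, 133 and 214 CPM, a mean of 97.8 that was 59.0 without library 4. Vldlr, a lipoprotein receptor, had 7.62, 2.30, 30.8 and 78.4 CPM, a mean of 29.8 that was 13.6 without library 4. Library 4 was highest for these 3, as it was for Slc2a3. Tgfb3, Acvrl1, Plcxd1, Sdc4, Kremen2 and Mboat2 were also highest in library 4: their means of 15.2, 20.3, 19.4, 20.1, 22.9 and 11.2 CPM were 6.66, 9.21, 9.92, 10.4, 12.7 and 6.61 CPM without it. Cysltr1, a leukotriene receptor, had 4.43, 1.90, 42.3 and 32.5 CPM, highest in library 3, and its mean of 20.3 CPM was 12.9 without that library. Each gene of this paragraph was higher in both libraries 3 and 4 than in libraries 1 and 2.

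Another set was high in library 2 alone. Lad1, an anchoring filament protein, had 12.2, 75.1, 1.39 and 9.07 CPM, the largest CV among detected genes with a mean of 10 CPM or more, at 139%, and its mean of 24.5 CPM was 7.56 without library 2. Cyp1a1, the classic target of the aryl hydrocarbon receptor, had 7.24, 40.2, 4.58 and 1.21 CPM, a mean of 13.3 that was 4.34 without library 2. Tbc1d4, a regulator of glucose transporter traffic, had 14.6, 92.1, 16.8 and 21.4 CPM, a mean of 36.2 that was 17.6 without library 2. Nrgn and Dapl1 averaged 10.4 and 11.5 CPM, and 4.43 and 5.79 CPM without library 2. In library 1 the interferon-induced genes Isg15, with 52.6, 6.24, 11.0 and 9.46 CPM, and Irf7, with 28.0, 4.06, 4.96 and 4.69 CPM, were highest. Without library 1 their means of 19.8 and 10.4 CPM were 8.91 and 4.57 CPM.

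**Figure D5:**
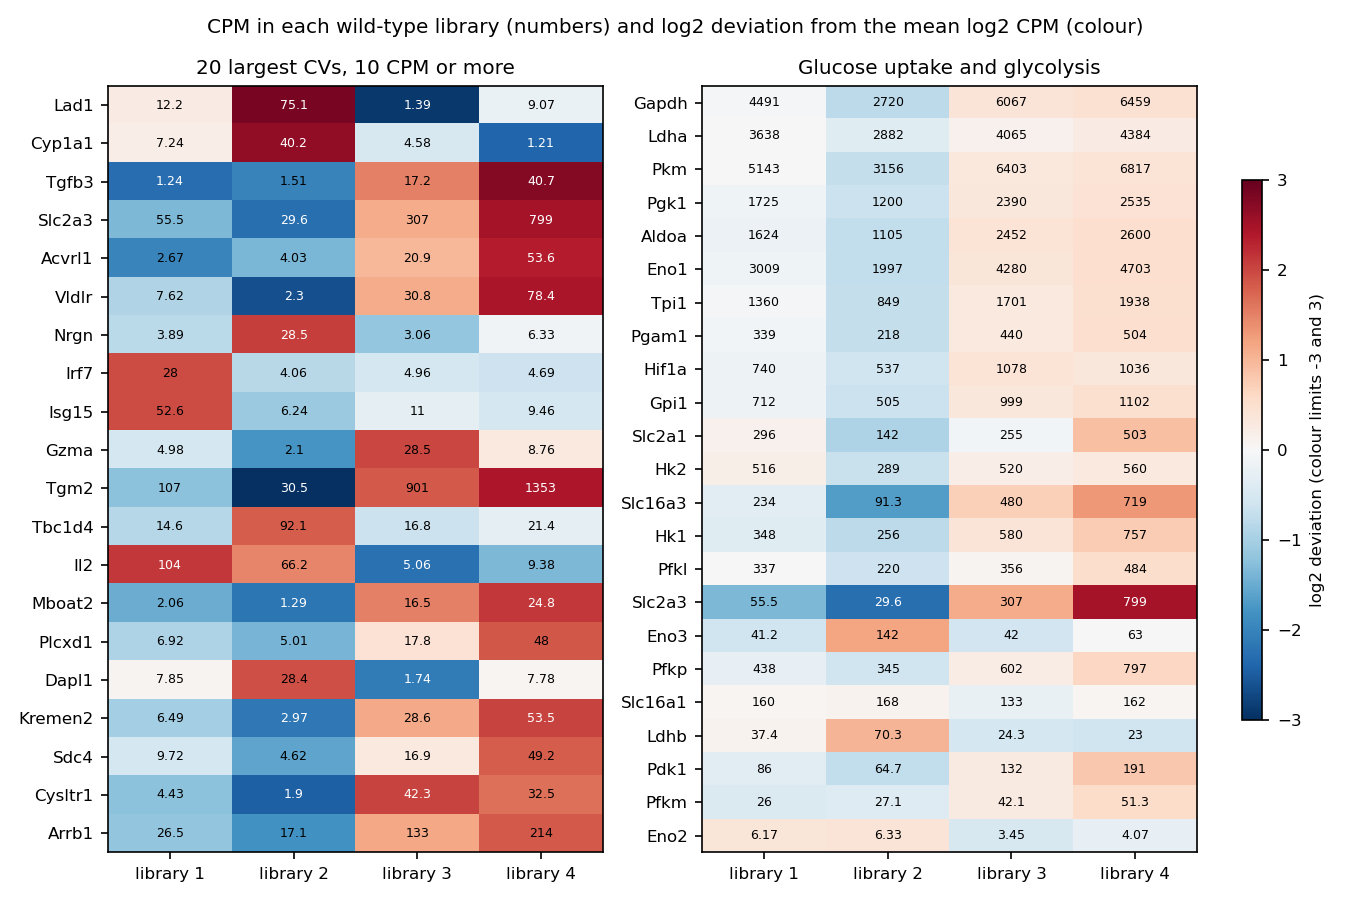
CPM in each of the 4 wild-type libraries (printed numbers) and log2 deviation from the gene's mean log2 CPM (colour, red above and blue below) for the 20 genes with the largest CV at 10 CPM or more (left) and for the detected genes of glucose uptake and glycolysis (right). The list median CV of the glycolytic genes is 33.4% (21.9% without library 2). Library 2 is lowest for 18 of the 23 (3727 of 11284 detected genes) and library 4 highest for 18 (2393 of 11284).

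Markers of other cells were low, and some moved between libraries. Of the natural killer cell markers Ncr1 was at 0, and the 5 together reached at most 3.22 CPM. The granulocyte markers S100a8 and S100a9 were at 0. The 5 red cell markers summed to 0.140 to 0.656 CPM, the 5 stromal and epithelial markers to 2.83 to 10.1 CPM and the 2 CD8 markers to 4.38 to 12.6 CPM. The 6 B cell markers summed to 4.42 to 14.6 CPM, mostly through Ebf1. Gamma-delta and NKT cell markers summed to 74.4, 54.9, 45.5 and 21.3 CPM, mostly through receptor constant genes, with Trac above Trdc per length by 57.3 to 224 times.

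Mast cell and basophil markers were found in 2 libraries. Their sum was 13.6, 0.0280, 11.3 and 0.0391 CPM in libraries 1 to 4, and Mcpt8, Cpa3, Prss34 and Fcer1a had no count in libraries 2 and 4, while Mcpt4 was at 0 in all 4. Csf2rb, the shared chain of the interleukin-3, interleukin-5 and GM-CSF receptors, had 8.57, 0.112, 6.22 and 0.117 CPM, and Il6 had 0.633, 0.0560, 0.999 and 0.117 CPM. Both were high in the same libraries 1 and 3, and the part of these cells in either value was not tested.

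The promoter windows differed along with the spread of the genes. RefSeq gave a window of 250 bases before the start for 8459 of 10407 detected protein-coding genes (81.3%). The observed over expected number of CG, a measure of how far a window keeps this dinucleotide, had a median of 0.797 in the 2160 genes with a CV under 10%. The median was 0.767 in the 4296 genes with a CV of 10% to under 25%, and 0.676 in the 2003 genes at 25% or more. The median level fell along these classes as well, with 36.8, 25.6 and 13.3 TPM, and its part was not tested.

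The lists differed in the same measure, where at least 80% of their detected genes had a window. Cytokines had a median of 0.361 over 18 genes, costimulatory and co-inhibitory receptors 0.353 over 19 and cytokine receptors 0.487 over 21. Th1 factors had 0.730 over 10, glycolysis 0.656 over 22, the tricarboxylic acid cycle 0.773 over 20, cell cycle genes 0.851 over 18 and nutrient sensing 0.979 over 12. The median of detected genes was 0.756. The other 8 lists had too few windows for this summary. They include T cell identity, where 10 of 15 detected protein-coding genes had a window, with a median of 0.236. The median CV of that list was 16.5%, beside 16.1% for all detected genes.

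TATAAA on the strand of the gene, 50 to 11 bases before the start, was in 0.981% of the windows of detected genes and in 2.64% of the 27025 windows of all genes. Among the 18 cytokines it was in 3: Ifng, Il2 and Tnf. It was also in 2 of 15 activation factors. The Th1 factors (10 windows), other lineage factors (17) and the homing list (12) had 1 each, and the remaining lists none. The medians of CG per window were 16 for detected genes and 6 for all genes, beside the 16 of Tbx21 and the 1 of Gzmb printed at the start. A match is a string of letters and not a measured site.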

How the data were processed

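RNA sequencing of wild-type mouse Th1 cells was taken from 1 deposited table of whole-number read counts per gene, of which the 4 wild-type columns were used. The submitters' processing notes name the build GRCm38 and, with no role or order, STAR 2.5.2, Subread 1.5.2, featureCounts and DESeq2. Annotation, strandedness and the handling of multi-mapped reads are not given in the sources used, so overlapping or near-identical genes are uncertain. The authors' comparison of genotypes stands in further columns, per the file headers, with a mean normalized count (a signal), log2 fold changes, a test statistic (a score) and p-values. None of these enters a value here. In 24 rows a spreadsheet had turned the gene symbol into a date. They held 0.211% of the wild-type counts and stayed in the library totals.

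CPM values use TMM factors from edgeR 4.0.16 (R 4.3.3) over the 4 libraries, and TPM values use summed exon lengths from GENCODE M21. Genes with a length held 99.4% of the counts. Tables were made with Python 3.11.15, and the levels and CVs were tested on simulated data. The members and lists were chosen with earlier results of these data known. Named are the 5 markers, every detected Th1 factor, lineage factor and cytokine, and in each other list the 4 genes highest per length and the 3 with the largest CV at 5 CPM or more. Markers of other helper fates are named at any level. Over all genes the 10 highest per length and the 20 largest CVs at 10 CPM or more are named, without unnamed gene models, pseudogenes and mitochondrial genes. Other genes of the lists were named after their values were seen. Alternatives were library totals or DESeq2 1.42.0 size factors, other detection rules, ranks without length or by the longest transcript, and each library left out. Promoter windows came from RefSeq on GRCm38.p6, with 92 genes matched by an older symbol. The list gene Areg was not analysed here, and a few list genes that enter the counts are not reported here by name.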

Additional observations from a re-analysis of the deposited data

Results flagged for a closer look

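In 16 of the 173 named genes (9.25%) 1 library stood apart from the other 3 by Dixon's criterion for 4 values. Among all detected genes the share was 6.41%, and chance alone gives about 1 in 20. The named genes include genes picked for a large CV over these same libraries. A raised share among them is therefore partly built in and tests nothing. Library 2 was the one apart in 10 of the 16, library 1 in 5, library 3 in 1 and library 4 in none.

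Library 2 was high for 9 genes. Its CPM was 25.4 for Gata3, 39.6 for Ccr8, 12.7 for Fasl and 9.88 for Ifngr2. It was 40.2 for Cyp1a1, 75.1 for Lad1, 28.5 for Nrgn and 92.1 for Tbc1d4, and 1930 for Rps3a1. The same library was low for Mif, with 516 CPM.

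Library 1 was high for Irf7 with 28.0 CPM, Isg15 with 52.6 CPM, Junb with 1333 CPM and Twist1 with 8.37 CPM. It was low for Foxo1, with 94.4 CPM. Library 3 was high for Il17a, with 1.32 CPM, a gene under 1 CPM in the other libraries. Library 2 differed from the others in Xist and Y-linked counts as well, and the part of this in the values above was not tested.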

How the results depend on the processing

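No paired analysis was possible because the values come from 1 group and from no test. With 1 library left out, the mean CPM moved by more than 1.5 times for 31 of the 173 named genes, 4 without library 1, 10 without library 2, 7 without library 3 and 10 without library 4. The most was 4.74 times, for Il17a without library 3. The 28 recomputed counts and median CVs stayed within 1.5 times. Other scalings moved no level by more than 0.853% (Tgfb3). Genes detected numbered 11288 with library totals, 13009 at 1 CPM in any library, 13276 at 10 counts in each, and 11331 to 11535 with 1 library left out. The median CV was 12.6% to 16.6% with 1 library left out, lowest without library 2. The count of detected genes with a CV of 50% or more was 340 without library 2, against 576 with it. Of the 118 list genes in the top 10% per length, 105 were among the 126 ranked there by CPM, and 110 among the 118 by longest transcript. With 4 libraries of unstated origin, the spread between animals and the spread between cultures cannot be told apart.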

Other observations

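Genes of class II antigen presentation, which T cells of mice usually make little of, did not move together. H2-Ab1, the class II beta chain, had 28.5, 3.22, 79.7 and 98.4 CPM in libraries 1 to 4, and H2-Aa, the alpha chain that pairs with it, 6.11, 1.51, 1.03 and 0.196 CPM. Per length H2-Ab1 exceeded H2-Aa by 6.90, 3.15, 114 and 745 times. Cd74, the invariant chain, had 71.9, 70.8, 18.9 and 19.0 CPM, the reverse of H2-Ab1 in libraries 3 and 4. The 9 markers of antigen-presenting cells summed to between 76.7 and 118 CPM in a library. Of the other 6 markers none reached 1 CPM in any library: Lyz2 had at most 6 counts, Csf1r at most 5 and Cd14 at most 4. The source of the H2-Ab1 counts was not tested, and whether reads of an overlapping or similar gene are among them cannot be told from counts per gene.

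Cd8a had 7.24, 7.72, 6.99 and 1.25 CPM, low in library 4, and Cd8b1, its partner chain, 3.62, 4.87, 3.54 and 3.13 CPM. Epcam, an epithelial adhesion protein, had 1.22, 2.10, 4.90 and 6.41 CPM.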
